A study of Homo sapiens with 4 samples.

Results

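The genes described here carry the interferon and nucleic acid sensing response, and 48 of them were followed among the 20263 gene IDs counted. They were taken by name from a list, not by a threshold on measured values, but the list was chosen with earlier results of these data known. By role they were sorted into 5 sensors, 11 signalling factors, 26 effectors and 6 genes of antigen presentation. The RNA came from HCT116, an established colorectal carcinoma cell line of human origin that the labels give as wild type. The cells had been exposed for 24 hours either to HJ-4, a test compound, at 32 µM (2 libraries) or to its vehicle DMSO at 0.1% (2 libraries). The dose is that of the labels and the study's methods, while a figure legend of the study gives a lower one. The question put to these data was whether transcripts of the interferon system differed between HJ-4 and DMSO cells.

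Cells detect viral or misplaced nucleic acid with sensor proteins: RIG-I and MDA5 (encoded by RIGI and IFIH1) bind double-stranded RNA in the cytoplasm, TLR3 does so in endosomes, and cGAS binds DNA. The sensors act through the adaptors MAVS and STING and the kinase TBK1 on interferon regulatory factors, which switch on interferon genes. Secreted interferon then acts through its receptors on factors that include STAT2 and IRF9, which act at the interferon-stimulated response element (ISRE) in target promoters, and interferon gamma acts through the gamma-activated site (GAS). The targets include antiviral effectors and the proteins that load peptides on HLA class I molecules. In bulk RNA a change in the number of expressing cells and a change in RNA per cell cannot be told apart.

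The libraries held 33762230 and 34359889 counts in HJ-4 cells, and 29769568 and 31120459 in DMSO cells. Levels are given as CPM (counts per 1000000 counts of a library), scaled by the trimmed mean of M-values (TMM), and fold changes are HJ-4 over DMSO on the log2 scale with a standard error. Of the colon epithelial markers, EPCAM lay between 244 and 268 CPM and KRT8 between 1702 and 1903 CPM in all 4 libraries, whereas CDX1 was at 0 and VIL1 and LGR5 were below 0.13 CPM in each. CDH1, the E-cadherin gene of the same marker list, had 101.4 and 107.7 CPM with HJ-4, against 83.4 and 73.5 CPM with DMSO (log2 fold change 0.41, edgeR adjusted p = 0.202, DESeq2 adjusted p = 0.0285). KRT20 had 16 and 19 counts with HJ-4, against 0 and 8 counts with DMSO. CDX2 of this list went the other way, with 11.5 and 12.7 CPM with HJ-4, against 13.2 and 13.9 CPM with DMSO (log2 fold change -0.16, edgeR adjusted p = 0.538). KRT18 and KRT19 had log2 fold changes of 0.15 and -0.02. The 8 haematopoietic markers summed to 46.7 and 51.1 CPM in HJ-4 cells, against 40.6 and 34.2 CPM in DMSO cells. Nearly all of this sum was CD68, a lysosomal glycoprotein gene, while CD3E was at 0 and PTPRC below 0.06 CPM in every library. The 4 endothelial markers summed to 2.11 and 2.01 CPM with HJ-4, against 1.56 and 1.43 CPM with DMSO, and the 6 fibroblast markers to between 59.0 and 63.1 CPM over all libraries, nearly all of it COL1A1, with COL1A2, DCN and LUM at 0. The part of the CDH1, KRT20, CDX2, CD68 and endothelial differences in the results below was not tested. The study's methods describe biological triplicates, but 2 libraries per group were available here, and the labels do not tie the libraries to separate cultures. The p-values therefore measure only how far these libraries lie apart, and that spread may be technical.

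Sensor and effector transcripts lay mostly higher in HJ-4 cells by small amounts, while most signalling factors lay slightly lower, and no single member passed the test. Of the 47 members with enough counts to be tested, 34 had a positive log2 fold change (72.3%), against 50.7% of the 14044 genes tested, and the median was 0.13 for the members and 0.00 for all genes. Both HJ-4 libraries stood above both DMSO libraries for 26 members (55.3%), against 25.2% of all genes, and below both for 6, against 25.6% of all genes. By edgeR's quasi-likelihood test with Benjamini-Hochberg adjustment over all genes, 0 members had an adjusted p under 0.05 (smallest adjusted p = 0.113, for IRF1), where 0.0498% of all genes passed. At an unadjusted p under 0.05 in edgeR, 10 members were on the higher side (21.3%), against 7.93% of all genes, and 0 on the lower side, against 7.93% of all genes. These were IFIH1, DHX58, IRF1, ISG20, OAS1, OASL, IFITM2, PARP14, BST2 and TAP1. DESeq2's Wald test called 3 members higher (IFIH1, IRF1 and TAP1), or 6.38%, against 2.33% of all genes, and 0 lower, against 1.76% of all genes. The count of 10 became 14 higher and 2 lower without DMSO replicate 1, 17 higher and 2 lower without DMSO replicate 2, and 4 higher and 1 lower without HJ-4 replicate 2, against 9.23%, 11.9% and 3.79% of all genes on the higher side.

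**Figure D1:**
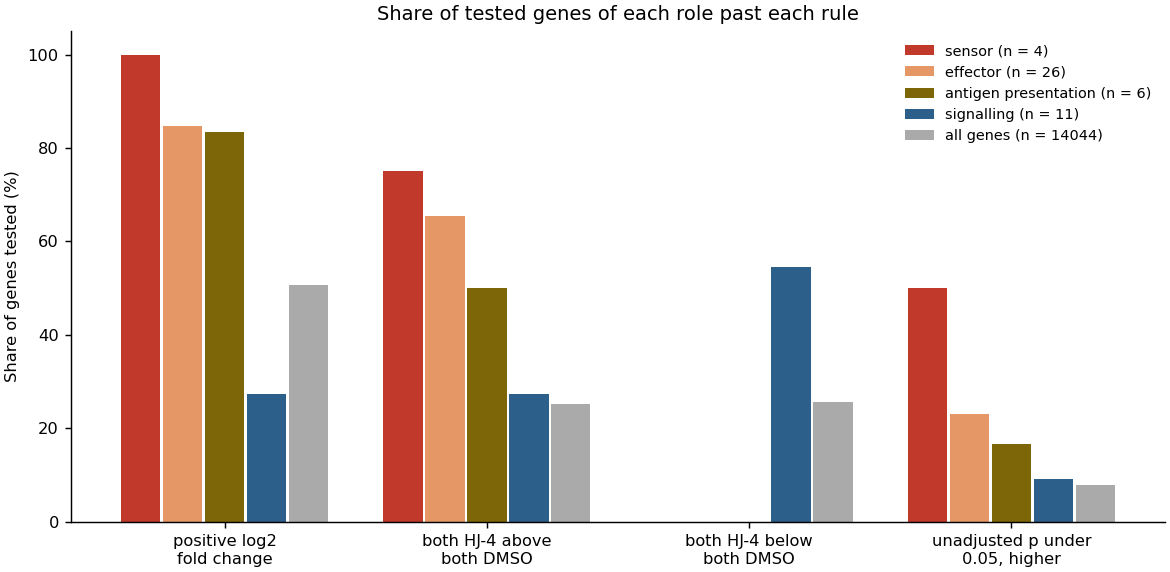
Share of tested genes (percent, bars from 0) with a positive log2 fold change, with both HJ-4 libraries above or below both DMSO libraries, or with an unadjusted p under 0.05 on the higher side, for each role and for all genes. The 6 members below DMSO are all signalling factors (6 of 11), against 25.6% of all genes below. Above lie 17 of the 26 effectors and 3 of the 11 signalling factors, against 25.2% of all genes.

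The promoters of these genes are known for ISRE and GAS sequences, so the windows from 250 bases before to 50 bases after the start, 300 bases in all, were searched on both strands for the ISRE core, GAAA followed by any 2 bases and GAAA, and the GAS core, TTC followed by any 3 bases and GAA. RefSeq windows of GRCh38.p14 were matched for 37 of the 48 members, and the other 11 were DHX58, CGAS, STING1, IRF2, IRF3, IRF7, IFIT2, OAS2, OASL, IFITM2 and USP18. The ISRE core stood in 21 of the 37 windows (56.8%), against 3.57% of 35116 RefSeq promoters, and the GAS core in 9 (24.3%), against 7.66%. By role, the ISRE core was found in 17 of 21 effectors, 2 of 3 sensors, 2 of 6 genes of antigen presentation and 0 of 7 signalling factors. Matches of the cores can overlap, as in BST2, and a match of letters is not a measured binding site. The following stretches are shown because they belong to the members whose values are described most closely below. They run along each gene's own strand, with the matched core in capitals, which is the GAS core in IRF1 and OAS1 and the ISRE core, or its reverse complement, in the others.
IFIH1: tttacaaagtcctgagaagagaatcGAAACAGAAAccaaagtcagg
IRF1: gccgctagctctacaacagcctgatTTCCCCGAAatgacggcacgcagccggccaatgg
ISG15: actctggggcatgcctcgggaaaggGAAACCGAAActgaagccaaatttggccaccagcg
IFIT1: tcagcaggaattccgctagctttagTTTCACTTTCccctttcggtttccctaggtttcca
ISG20: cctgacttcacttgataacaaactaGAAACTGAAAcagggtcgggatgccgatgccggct
OAS1: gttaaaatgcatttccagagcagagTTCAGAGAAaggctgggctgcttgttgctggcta
BST2: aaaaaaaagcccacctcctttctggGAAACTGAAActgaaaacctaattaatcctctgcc
TAP1: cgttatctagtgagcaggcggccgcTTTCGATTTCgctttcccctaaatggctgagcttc

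In GRCh38.p14 these stretches lie at chr2:162318685-162318730 on the minus strand (IFIH1), chr5:132490864-132490922 on the minus strand (IRF1), chr1:1013365-1013424 on the plus strand (ISG15), chr10:89392482-89392541 on the plus strand (IFIT1), chr15:88638922-88638981 on the plus strand (ISG20), chr12:112906769-112906827 on the plus strand (OAS1), chr19:17405726-17405785 on the minus strand (BST2) and chr6:32853804-32853863 on the minus strand (TAP1). The IFIH1 core begins 21 bases and the ISG20 core 69 bases before the RefSeq start. Of the 21 members with an ISRE core, 17 had a positive log2 fold change and the median was 0.18. Of the 16 tested members whose window lacks it, 10 were positive and the median was 0.11. Both HJ-4 libraries were above both DMSO libraries for 12 of 21 members with the core and 7 of 16 without it, against 25.2% of all genes. They were below for 0 with the core and 4 without it, against 25.6% of all genes. Those 4 were signalling factors, a role in which 0 of 7 windows held the core, so core and role cannot be told apart here. For the GAS core, 6 of 9 members with it and 21 of 28 without it had a positive log2 fold change, with medians of 0.45 and 0.12. Both HJ-4 libraries were above both DMSO libraries for 6 of 9 with it and 13 of 28 without it, against 25.2% of all genes. They were below for 1 and 3, against 25.6% of all genes. No test was made of the difference between members with and without either core.

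Among the sensors, IFIH1, the gene of the double-stranded RNA sensor MDA5, had 77.2 and 79.9 CPM in HJ-4 cells, against 41.3 and 53.5 CPM in DMSO cells. Its groups did not overlap, and the log2 fold change was 0.73 (standard error 0.14, adjusted p = 0.165 in edgeR's quasi-likelihood test, and 0.00189 in DESeq2). IFIH1 (ENSG00000115267) spans chr2:162267074-162318684, and its ISRE core shown above ends 12 bases before this start. DHX58 encodes LGP2, which binds RNA like the other RIG-I-like receptors and modulates their signalling. DHX58 had 11.4 and 11.6 CPM with HJ-4, against 8.50 and 8.51 CPM with DMSO, so that libraries of a group were nearly equal. The log2 fold change was 0.43 (standard error 0.12, edgeR adjusted p = 0.23). TLR3 was scarce, at 2.64 and 2.40 CPM with HJ-4, against 1.40 and 2.13 CPM with DMSO (log2 fold change 0.52, standard error 0.27, edgeR adjusted p = 0.423).

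RIGI, the gene of the RIG-I sensor of RNA ends, did not separate the groups: it had 54.4 and 50.5 CPM with HJ-4, against 30.9 and 55.6 CPM with DMSO. DMSO replicate 1 alone was low, and the log2 fold change of 0.28 (standard error 0.28, edgeR adjusted p = 0.655) became -0.09 without it. RIGI also shares 42.0% of its 64-base transcript words with other annotated genes, so its reads may be split between them. IFIH1, RIGI and TLR3 were lower in DMSO replicate 1 than in DMSO replicate 2, while DHX58 was nearly equal in both. The sensors summed to 145.6 and 144.4 CPM with HJ-4, against 82.2 and 119.9 CPM with DMSO. CGAS, the gene of the cytosolic DNA sensor, was barely seen: 0 and 0 counts in HJ-4 cells, against 2 and 2 counts in DMSO cells. These do not exceed the 3 counts that a count of 0 still allows, which is 0.0881 and 0.0899 CPM in the HJ-4 libraries and 0.0955 and 0.0997 CPM in the DMSO libraries, so no fold change is given. These limits cover counting error only.

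**Figure D2:**
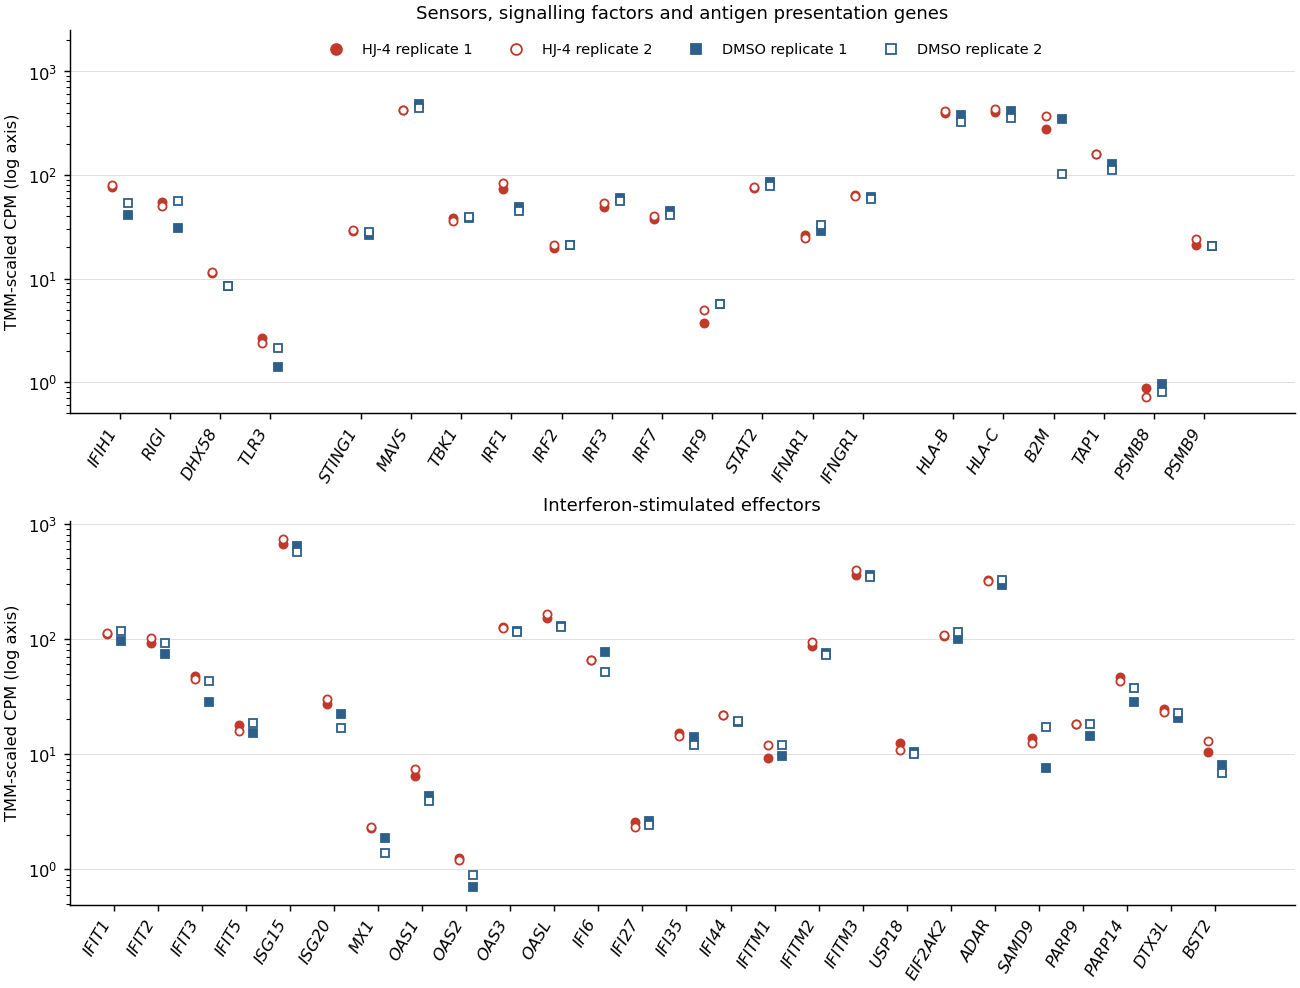
Level (TMM-scaled CPM, log axis) of the 47 tested members in each of the 4 libraries, with HJ-4 libraries as circles, DMSO libraries as squares and the members grouped by role. IFIH1 lies at 77.2 and 79.9 CPM with HJ-4, above 41.3 and 53.5 CPM with DMSO, while the 2 DMSO libraries of B2M lie far apart.

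Most signalling factors lay on the lower side in HJ-4 cells. Among the 11, log2 fold changes were negative for 8 and positive for 3 (27.3%, against 50.7% of all genes), with a median of -0.13. The 6 members whose HJ-4 libraries lay below both DMSO libraries (MAVS, IRF3, IRF7, IRF9, STAT2 and IFNAR1) were all of this role. Of all genes, 25.6% lay below in this way. These differences were small, with log2 fold changes between -0.38 and -0.13, and none of the 6 reached an unadjusted p of 0.05 in edgeR. MAVS, the mitochondrial adaptor of RIG-I and MDA5, had 422.6 and 428.9 CPM with HJ-4, against 484.2 and 446.9 CPM with DMSO. Of the 6, it was the most abundant per length of transcript, at 36.3 CPM per kb with HJ-4 and 39.7 CPM per kb with DMSO.

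IRF1 had the largest difference among the signalling factors. This transcription factor gene, itself induced by interferon gamma, had 73.8 and 83.6 CPM in HJ-4 cells, against 48.9 and 44.6 CPM in DMSO cells. The lowest HJ-4 library stood well above the highest DMSO library. The log2 fold change was 0.75 (standard error 0.11), the smallest adjusted p of any member in edgeR (0.113), and DESeq2 gave an adjusted p of 7.44e-06. Leaving out any 1 library kept the log2 fold change between 0.65 and 0.85. IRF1 (ENSG00000125347, chr5:132440440-132508719) has exons that overlap those of IRF1-AS1 on the opposite strand, and without a stated strand setting their reads may not be told apart.

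Components of type I interferon reception lay lower, within the limits of the test. IFNAR1, a receptor chain for interferon alpha and beta, had 26.5 and 24.5 CPM with HJ-4, against 28.6 and 33.2 CPM with DMSO (log2 fold change -0.28, standard error 0.12, edgeR adjusted p = 0.343). IRF9, the DNA-binding partner of STAT2 at the ISRE, had 3.73 and 5.01 CPM with HJ-4, against 5.73 and 5.65 CPM with DMSO (log2 fold change -0.38, standard error 0.20, edgeR adjusted p = 0.405). IRF9 shares 18.2% of its words with other genes, above all with an unnamed gene on its own strand.

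STAT2, which acts with IRF9, had 75.0 and 76.2 CPM with HJ-4, against 86.3 and 78.7 CPM with DMSO (log2 fold change -0.13, standard error 0.09, edgeR adjusted p = 0.514). IRF3, the factor that TBK1 phosphorylates, had 49.4 and 53.8 CPM with HJ-4, against 59.6 and 56.0 CPM with DMSO (log2 fold change -0.16, standard error 0.10, edgeR adjusted p = 0.454). The groups of both genes were separate, but by little. STING1, the adaptor of cGAS, was present while CGAS was barely counted, at 28.5 and 29.7 CPM with HJ-4, against 26.1 and 28.1 CPM with DMSO (log2 fold change 0.10, standard error 0.10, edgeR adjusted p = 0.63). TBK1 (log2 fold change -0.07) and IRF2 (-0.03) overlapped between groups, IRF7 lay at -0.15 and IFNGR1, a chain of the interferon gamma receptor, at 0.09.

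**Figure D3:**
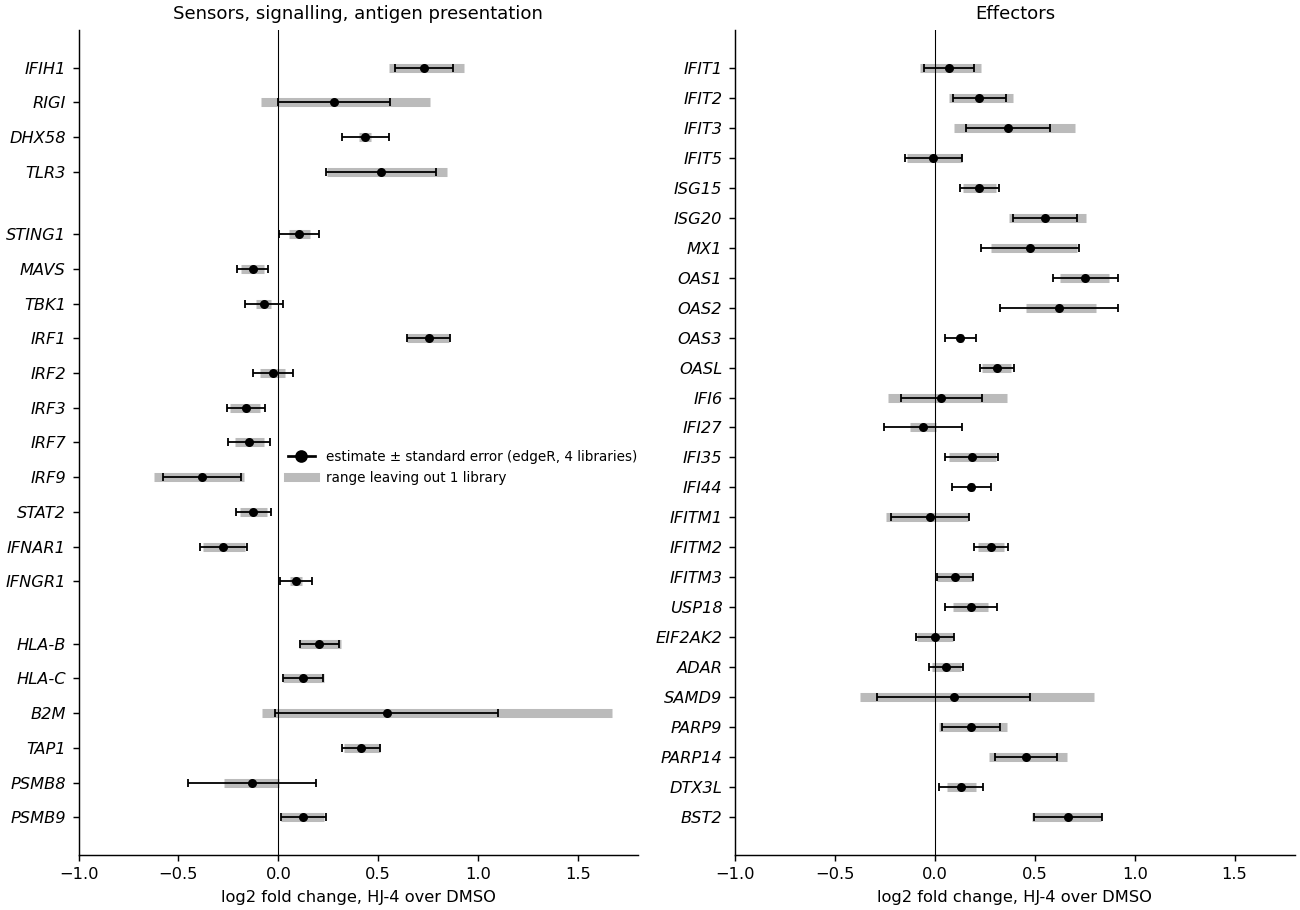
Log2 fold change of HJ-4 over DMSO for the 47 tested members, as points with standard error bars, and grey bars for the range of the estimate when 1 library is left out. IRF1 (0.75) and OAS1 (0.75) are the highest and IRF9 (-0.38) the lowest, and the grey bar of B2M runs from -0.08 to 1.67.

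The effectors were the largest group. All 26 were tested, 22 with a positive log2 fold change (84.6%, against 50.7% of all genes) and 4 with a negative one (median 0.18). In 17 (65.4%) the HJ-4 libraries were above both DMSO libraries, against 25.2% of all genes, and in 0 below, against 25.6% of all genes. At an unadjusted p under 0.05 in edgeR, 6 effectors (23.1%) were on the higher side, against 7.93% of all genes, and 0 on the lower side, against 7.93% of all genes. The family of 2′-5′-oligoadenylate synthetases, which activate RNase L on double-stranded RNA, had 4 members on the list, and in each of them both HJ-4 libraries were above both DMSO libraries. OAS1 had 6.43 and 7.49 CPM with HJ-4, against 4.33 and 3.92 CPM with DMSO (log2 fold change 0.75, standard error 0.16, edgeR adjusted p = 0.183). OASL, which lacks the synthetase activity of its relatives, had 151.8 and 164.7 CPM with HJ-4, against 128.1 and 127.2 CPM with DMSO (log2 fold change 0.31, standard error 0.08, edgeR adjusted p = 0.23). OAS2 and OAS3 had log2 fold changes of 0.62 and 0.13. The 3 genes OAS1, OAS2 and OAS3 lie next to each other on chromosome 12 but stood at very different levels per length, at 4.27, 0.27 and 19.0 CPM per kb of transcript with HJ-4, against 2.53, 0.17 and 17.4 CPM per kb with DMSO.

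ISG20, an exonuclease that degrades single-stranded RNA, had 27.2 and 29.9 CPM with HJ-4, against 22.1 and 16.9 CPM with DMSO (log2 fold change 0.55, standard error 0.16, edgeR adjusted p = 0.24). BST2, or tetherin, which holds budding viruses at the cell surface, had 10.5 and 13.1 CPM with HJ-4, against 7.99 and 6.85 CPM with DMSO (log2 fold change 0.67, standard error 0.17, edgeR adjusted p = 0.219). Both genes carry an ISRE core in the windows shown above, and in both the groups were separate. ISG15, a ubiquitin-like modifier, was the most abundant member per length, with 1104 CPM per kb in HJ-4 cells and 946 CPM per kb in DMSO cells. Its libraries had 669.6 and 736.3 CPM with HJ-4, against 637.2 and 568.0 CPM with DMSO, and the log2 fold change was 0.22 (standard error 0.10, edgeR adjusted p = 0.347).

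The IFIT family, whose proteins bind viral RNA ends, was mixed. IFIT1 had 109.8 and 112.8 CPM with HJ-4, against 94.8 and 117.1 CPM with DMSO, and its log2 fold change of 0.07 (standard error 0.12, edgeR adjusted p = 0.808) became -0.07 without DMSO replicate 1. IFIT2, IFIT3 and IFIT5 had log2 fold changes of 0.22, 0.37 and -0.01, and the first pair had separate groups. The membrane proteins of the IFITM family, which restrict virus entry, had log2 fold changes of -0.02 (IFITM1), 0.28 (IFITM2) and 0.10 (IFITM3). Between 12.6% and 25.6% of their words are shared with other genes, so reads may be assigned to the wrong copy.

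The other effectors had small differences. PARP14, an ADP-ribosyltransferase, had 46.3 and 43.4 CPM with HJ-4, against 28.3 and 37.2 CPM with DMSO, a log2 fold change of 0.45. Its partners in the same chromosome region, PARP9 and the ubiquitin ligase gene DTX3L, had values of 0.18 and 0.13, and exons of these neighbours overlap on opposite strands. MX1, a dynamin-like antiviral GTPase and a common marker of the response, was scarce, with 2.26 and 2.31 CPM in HJ-4 cells, against 1.88 and 1.40 CPM in DMSO cells (log2 fold change 0.48). The genes that encode the RNA-activated kinase PKR (EIF2AK2, log2 fold change 0.00) and the RNA-editing enzyme ADAR (0.06) overlapped between the groups. IFI35, IFI44 and USP18, which removes ISG15 from proteins, each had a log2 fold change of 0.18 with separate groups. IFI27 (-0.06), IFI6 (0.03) and SAMD9 (0.09) overlapped, and SAMD9 ranged from 7.55 to 17.0 CPM within the DMSO libraries.

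Of the 6 genes of antigen presentation, 5 had a positive log2 fold change (83.3%), against 50.7% of all genes. Both HJ-4 libraries were above both DMSO libraries for 3 of the 6 (50%), against 25.2% of all genes, and below for 0, against 25.6%. TAP1 alone (16.7%) had an unadjusted p under 0.05 in edgeR, on the higher side, against 7.93% of all genes. TAP1, a chain of the transporter that carries peptides into the endoplasmic reticulum, had 158.9 and 160.1 CPM in HJ-4 cells, against 127.1 and 112.2 CPM in DMSO cells. The log2 fold change was 0.41 (standard error 0.09, edgeR adjusted p = 0.191, DESeq2 adjusted p = 0.0137). TAP1 (ENSG00000168394) lies at chr6:32845209-32853816. PSMB9 and PSMB8 encode catalytic subunits of the immunoproteasome, which cuts proteins into such peptides. PSMB9 had 20.9 and 23.9 CPM with HJ-4, against 20.5 and 20.6 CPM with DMSO (log2 fold change 0.13, standard error 0.11, edgeR adjusted p = 0.61). PSMB8 was hardly expressed, at 0.88 and 0.72 CPM with HJ-4, against 0.96 and 0.80 CPM with DMSO (log2 fold change -0.13), and the exons of this pair overlap on opposite strands.

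The HLA class I heavy chains were among the most abundant members per length of transcript. HLA-B had 399 and 413 CPM with HJ-4, against 377 and 327 CPM with DMSO (log2 fold change 0.21, standard error 0.10, edgeR adjusted p = 0.376), and HLA-C had 407 and 430 CPM with HJ-4, against 412 and 357 CPM with DMSO (log2 fold change 0.12, standard error 0.10, edgeR adjusted p = 0.574). HLA genes are near-identical copies in places, and HLA-B shares 27.8% of its words with other genes. B2M, the light chain of every class I molecule, had 279.5 and 371.1 CPM with HJ-4, against 344.1 and 102.4 CPM with DMSO. DMSO replicate 2 stood apart below the other 3 libraries, and the log2 fold change of 0.54 (standard error 0.56, edgeR adjusted p = 0.659) became -0.08 without it. Over the 47 tested members, the DMSO libraries differed by more than 0.5 on the log2 scale for 5 (10.6%: RIGI, IFIT3, IFI6, SAMD9 and B2M), against 10.5% of all genes, and the HJ-4 libraries for 0, against 6.54% of all genes.

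**Figure D4:**
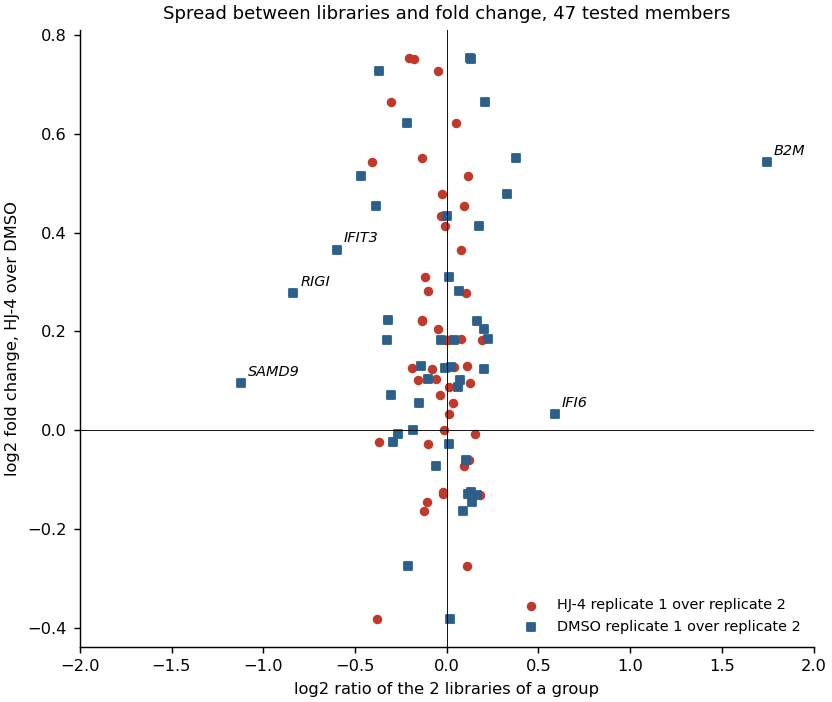
Log2 ratio of replicate 1 over replicate 2 within the HJ-4 group (circles) and the DMSO group (squares) on the horizontal axis, and the log2 fold change of HJ-4 over DMSO on the vertical axis, for the 47 tested members. The HJ-4 points lie within 0.5 of 0, while 5 labelled DMSO points (RIGI, IFIT3, IFI6, SAMD9 and B2M) lie beyond it.

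A wider list of 103 other genes of the pathway was read in the same fit, of which 87 were tested and 0 passed an adjusted p of 0.05 in edgeR's quasi-likelihood test. At an unadjusted p under 0.05 in edgeR, 6 of 15 tested interferon and receptor genes (40.0%), 1 of 22 sensing and signalling genes (4.55%), 9 of 32 effectors (28.1%) and 2 of 18 antigen presentation genes (11.1%) were on the higher side, against 7.93% of all genes. The share of the sensing and signalling genes was below that of all genes and the share of the antigen presentation genes near it. On the lower side were 2 of the 32 effectors (TRIM21 and SP110, named after their values were seen), against 7.93% of all genes, so this count was not above that share. DESeq2 called 6 of the 87, all higher, where 2.33% of all genes were called higher: IFNL1, IFNL2, IFNL3, SOCS1, CD274 and PARP10. The median log2 fold changes of the 4 lists were 0.01, 0.11, 0.22 and 0.10.

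The smallest edgeR p-values of the wider list were those of IFNL2 and IFNL3, genes of type III interferon, a secreted interferon (lambda) that acts chiefly on epithelial cells. IFNL2 had 18.8 and 21.3 CPM in HJ-4 cells, against 7.2 and 6.75 CPM in DMSO cells (log2 fold change 1.52, standard error 0.13, edgeR adjusted p = 0.0633, DESeq2 adjusted p = 3.73e-12). IFNL3 had 21.3 and 25.5 CPM with HJ-4, against 7.07 and 8.47 CPM with DMSO (log2 fold change 1.59, standard error 0.16, edgeR adjusted p = 0.0794, DESeq2 adjusted p = 8.22e-11). IFNL1 had 9.07 and 11.2 CPM with HJ-4, against 5.22 and 4.29 CPM with DMSO (log2 fold change 1.09, standard error 0.18, edgeR adjusted p = 0.143, DESeq2 adjusted p = 0.00302). The groups were separate for all 3 genes, as is likely for genes picked by smallest p. Both HJ-4 libraries were above both DMSO libraries for 6 of the 15 tested genes of their list (40%), against 25.2% of all genes. With the replicate number as a block, IFNL2 and IFNL3 passed the threshold in edgeR, with adjusted p-values of 0.033 and 0.0207. The labels do not give such a pairing, and same-numbered libraries did not deviate together (correlation -0.0632). IFNL2 and IFNL3 share 27.9% and 26.8% of their words with other genes, so how reads were divided between them is uncertain, and the promoter stretch around their ISRE core is the same in both. The stretches below show that identity and the differing IFNL1 stretch, with the reverse complement of the ISRE core in capitals.
IFNL1: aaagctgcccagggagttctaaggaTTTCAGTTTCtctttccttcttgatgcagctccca
IFNL2: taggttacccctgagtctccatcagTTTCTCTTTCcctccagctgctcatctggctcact
IFNL3: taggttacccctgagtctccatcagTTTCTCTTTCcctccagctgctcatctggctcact

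They lie in GRCh38.p14 at chr19:39296168-39296227 on the plus strand (IFNL1), chr19:39268195-39268254 on the plus strand (IFNL2) and chr19:39245392-39245451 on the minus strand (IFNL3). IFNB1, a type I interferon gene, was too scarce to be tested, with 6 and 14 counts in HJ-4 cells, against 2 and 4 counts in DMSO cells. IFNE, another type I gene, went the other way at low counts, with 5 and 12 counts with HJ-4, against 18 and 14 counts with DMSO (log2 fold change -1.03, standard error 0.56, edgeR adjusted p = 0.431). IFNK had 2 and 0 counts in each group, and IFNG had 0 counts in all 4 libraries. SOCS1, an inhibitor of cytokine signalling that interferon induces, was named after its values were seen. It had 6.25 and 7.88 CPM with HJ-4, against 3.66 and 3.19 CPM with DMSO (log2 fold change 1.04, standard error 0.19, edgeR adjusted p = 0.154).

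**Figure D5:**
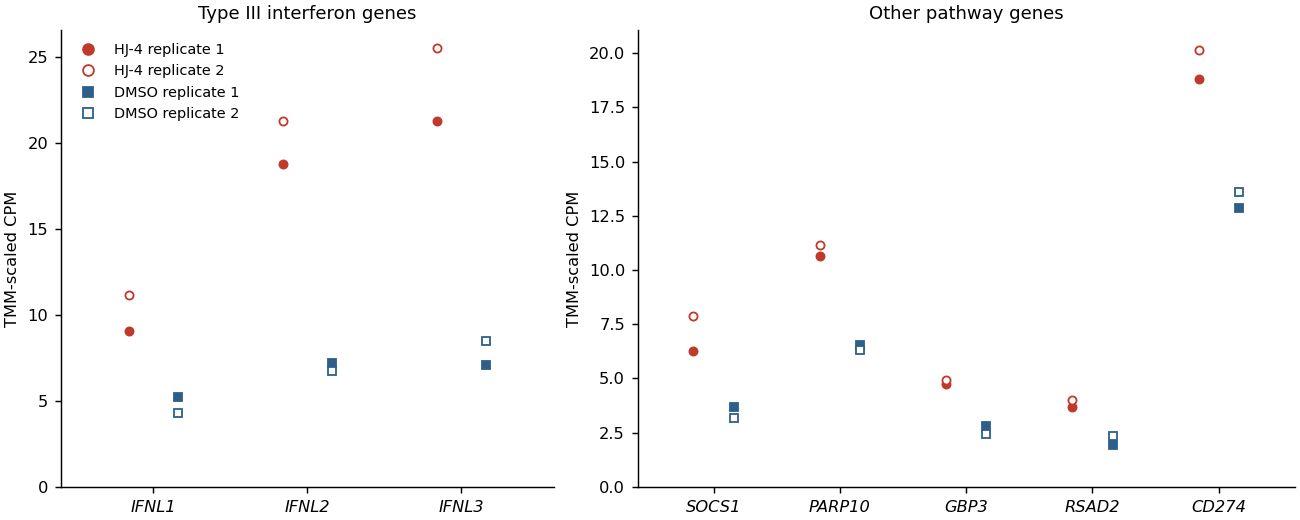
Level (TMM-scaled CPM) of the interferon lambda genes and of 5 other genes of the wider list in each library, HJ-4 libraries (circles) left of DMSO libraries (squares), each panel with its own scale. The genes do not stand for their lists: SOCS1 and RSAD2 were picked after their values were seen, and the others by smallest p. Log2 fold changes were negative for 7 of the 15 tested interferon and receptor genes and 8 of the 32 tested effectors. IFNL2 lies at 18.8 and 21.3 CPM with HJ-4, against 7.2 and 6.75 CPM with DMSO.

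The interferon-induced gene RSAD2, which encodes the antiviral protein viperin, was also named after its values were seen, with 3.67 and 4.02 CPM with HJ-4, against 1.94 and 2.36 CPM with DMSO (log2 fold change 0.84, edgeR adjusted p = 0.199). Among the other effectors, PARP10, an ADP-ribosyltransferase, had 10.6 and 11.2 CPM with HJ-4, against 6.53 and 6.31 CPM with DMSO (log2 fold change 0.76, edgeR adjusted p = 0.133). CD274, the gene of the immune checkpoint ligand PD-L1, had 18.8 and 20.1 CPM with HJ-4, against 12.9 and 13.6 CPM with DMSO (log2 fold change 0.56, edgeR adjusted p = 0.165). GBP3, a guanylate-binding protein, had 4.73 and 4.95 CPM with HJ-4, against 2.80 and 2.43 CPM with DMSO (log2 fold change 0.89, edgeR adjusted p = 0.165). In PARP10, CD274 and GBP3 both HJ-4 libraries were above both DMSO libraries, as is likely for genes picked by smallest p. The same held for 16 of the 32 tested genes of their list (50%), against 25.2% of all genes.

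Of the peptide-loading genes, ERAP1, which trims peptides, had 29.7 and 28.0 CPM with HJ-4, against 18.8 and 22.2 CPM with DMSO (log2 fold change 0.50, standard error 0.12, edgeR adjusted p = 0.206). TAP2, the partner chain of TAP1, had 110.5 and 98.2 CPM with HJ-4, against 85.0 and 80.6 CPM with DMSO (log2 fold change 0.33, standard error 0.10, edgeR adjusted p = 0.24), and it shares 18.2% of its words with other genes. CANX, a chaperone of the heavy chain, had 1104 and 1012 CPM with HJ-4, against 911 and 976 CPM with DMSO (log2 fold change 0.17, standard error 0.09, edgeR adjusted p = 0.411). In ERAP1, TAP2 and CANX, also picked by smallest p, both HJ-4 libraries were above both DMSO libraries. The same held for 9 of the 18 tested genes of their list (50%), against 25.2% of all genes. Of the sensing and signalling genes, RNF135, a ubiquitin ligase of RIG-I, had 12.1 and 12.6 CPM with HJ-4, against 9.91 and 9.6 CPM with DMSO (log2 fold change 0.34, standard error 0.12, edgeR adjusted p = 0.277). NLRX1, a mitochondrial regulator of MAVS, had 27.2 and 29.6 CPM with HJ-4, against 25.6 and 22.5 CPM with DMSO (log2 fold change 0.24, standard error 0.11, edgeR adjusted p = 0.384). MYD88, the adaptor of most Toll-like receptors, had 7.66 and 16.8 CPM with HJ-4, against 20.4 and 20.0 CPM with DMSO (log2 fold change -0.72, standard error 0.37, edgeR adjusted p = 0.403). The groups of RNF135 and NLRX1 were separate with HJ-4 higher, and those of MYD88 were separate with HJ-4 lower, where HJ-4 replicate 1 was far below HJ-4 replicate 2. This is likely for genes picked by smallest p. Of the 22 tested genes of their list, 7 (31.8%) lay above, against 25.2% of all genes, and 4 below, against 25.6% of all genes. These shares are near those of all genes.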

How the data were processed

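The authors deposited 1 table of unnormalized counts with 4 library columns. The study's methods name STAR, featureCounts and GRCh38. The tools listed in the submitters' notes are HISAT2, RSEM, bedtools, Trimmomatic and FastQC. The sources used here do not give which counter, annotation or strand setting was used. Genes that overlap or are near-identical can gain or lose counts by how a counter treats such reads. IDs were matched to GENCODE 44 (20148 of 20263), and the 115 others held at most 0.0533% of a library.

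Genes with enough counts (filterByExpr, 14044 genes) entered the quasi-likelihood test of edgeR 4.0.16 in R 4.3.3 (glmQLFit, glmQLFTest), with TMM scaling, a single condition term and p-values adjusted by Benjamini-Hochberg. Standard errors came from the F statistic. The script was tested on simulated data first. The alternatives were other scalings and filters, DESeq2 1.42.0, limma-voom (limma 3.58.1), a replicate block and leaving out each library. Levels between genes were divided by the Ensembl canonical transcript length. Shared sequence is the share of a gene's 64-base transcript words found in another gene. Ratios between replicates used 0.5 CPM added to each.

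The members and lists were chosen with earlier results of these data known. Values per library are given for up to 4 members of each role and 3 genes of each other list with the smallest p, for ISG15, IFIT1, OAS1, STAT2, IRF1, CGAS, STING1 and B2M, and for the member not tested. MAVS, PARP14, MX1, PSMB8, SAMD9, IFNB1, IFNE, IFNK and IFNG were added after their values were seen. Results for some genes of the pathway are not reported here. A chi-square test found each group's libraries to differ beyond counting noise (21.9 per degree of freedom for HJ-4, 36.5 for DMSO).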

Additional observations from a re-analysis of the deposited data

How the results depend on the processing

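Over all genes, edgeR called 7 genes, 12 with no filter, 31 with a replicate block and 0 to 88 leaving out a library (0 without either HJ-4 library, 88 without DMSO replicate 1 and 34 without DMSO replicate 2), and DESeq2's Wald test called 574. Among the members 0 were called in edgeR and limma-voom under every alternative, the replicate block and each left-out library included, and 3 in DESeq2's Wald test. With an arm of 1 library, that library is assumed to vary like those of the other arm. Members past an unadjusted p of 0.05 numbered 10, and 5 to 19 leaving out a library. The members' median log2 fold change of 0.13 became 0.10 with total counts, which shifted the median of all genes to -0.03, 0.18 with limma-voom, 0.18 with the replicate block, and lay between 0.120 and 0.176 leaving out a library. Of 361 values for 33 named genes, 348 kept their direction and side of the threshold, 10 passed it (8 in DESeq2's Wald test and 2, IFNL2 and IFNL3, with the replicate block) and 3 reversed. The reversed log2 fold changes were RIGI at -0.085 and IFIT1 at -0.074 without DMSO replicate 1, and B2M at -0.082 without DMSO replicate 2. Leaving out a library in turn gave -0.085 to 0.76 for RIGI, -0.074 to 0.23 for IFIT1 and -0.082 to 1.67 for B2M. The cause was not tested. The labels do not say that a replicate number marks a shared culture, and same-numbered libraries did not deviate together (correlation -0.0632).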

Other observations

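Some genes of the wider list are named here after their values were seen and are given without a comparison. IFI30, a lysosomal thiol reductase gene, had 40.1 and 5.84 CPM in the HJ-4 libraries and 38.4 and 39.4 CPM in the DMSO libraries, and it shares 40.0% of its words with other genes. The DNA sensor gene IFI16 had 4 and 7 counts in HJ-4 cells, against 0 and 2 counts in DMSO cells, and AIM2, ZBP1, TLR7, TLR4 and IRF8 were at 0 in all 4 libraries.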
